A study of Saccharomyces cerevisiae with 6 samples.

Results

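The heat response of budding yeast lacking the histone deacetylase gene RPD3 was set against that of wild type, gene by gene. The rule took the difference between the log2 heat ratios of the 3 rpd3 deletion arrays and the 3 wild-type arrays, so all 6 arrays of the series and all 4073 named genes entered it. Wild type was BY4741, a haploid laboratory strain with auxotrophic gene deletions, and the mutant carried rpd3Δ in the same background. For each strain, 3 independent cultures grew in rich medium to mid-log phase. RNA of cells at 39 °C for 20 minutes was hybridised against RNA of unheated cells at 25 °C, always within a strain. The labels do not say how many clones of the deletion strain were used.

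Rpd3 is the catalytic subunit of histone deacetylase complexes that remove acetyl groups from histone tails. The large complex, Rpd3L, is brought to promoters by DNA-binding factors such as Ume6 and mostly represses them, while the small complex, Rpd3S, acts within transcribed genes. In yeast moved to a higher temperature, Hsf1 and the related factors Msn2 and Msn4 induce chaperone and stress genes, and genes for ribosome production are repressed.

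A heat ratio is the log2 ratio of heated over control RNA. Neither its sign nor its log base is stated in the sources used here. The base was taken as 2, and the sign was read from genes long known to be induced by heat, since HSP12 was at 6.39, SSA4 at 5.33 and HSP104 at 4.04 in wild type. That these genes rise is therefore no result here. A strain difference is the mutant mean minus the wild-type mean, given with its standard error. A gene is called higher or lower where the limma adjusted p of this difference, with Benjamini-Hochberg adjustment over 4073 genes, is under 0.05, and every adjusted p below comes from that fit. Because each ratio is taken within a strain, a difference can lie in the control level, in the heated level or in both, and ratios cannot tell these apart.

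In all, 1012 genes were higher in the mutant (24.8%) and 854 were lower (21.0%), together 45.8% of all genes. On heating alone, 29.7% of genes rose and 36.3% fell in wild type, and 33.7% rose and 31.9% fell in the mutant. At least 2-fold differences were called for 296 genes higher (7.27%) and 177 lower (4.35%). The arrays of the strains did not overlap for 2378 genes (58.4%). Among the genes called higher, 480 had a wild-type mean of -0.5 or below, 478 lay between -0.5 and 0.5, and 54 were at 0.5 or above. Among those called lower, 359 had a wild-type mean of 0.5 or above, 424 lay between, and 71 were at -0.5 or below. Such a split is partly built in, since both the class and the difference use the wild-type arrays. The mutant arrays were less alike (r = 0.851 to 0.956 across genes) than the wild-type arrays (0.952 to 0.980). Mutant array 3 was the least like wild type (0.504 to 0.700). Leaving out wild-type array 1, wild-type array 2 or mutant array 1 gave 480, 507 and 450 lower genes, and the last of these gave 643 higher genes. Centring each array on 4 genes deleted in BY4741 moved the median difference of all genes from 0.02 to 0.27, with 1596 genes higher and 391 lower. This centring shifts all genes alike. The medians of general stress (-0.31), endoplasmic reticulum folding (-0.30), autophagy (-0.32) and iron uptake genes (-0.25), among others, come near 0 under it. Small shifts of a list are therefore best read against the median of all genes.

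**Figure D1:**
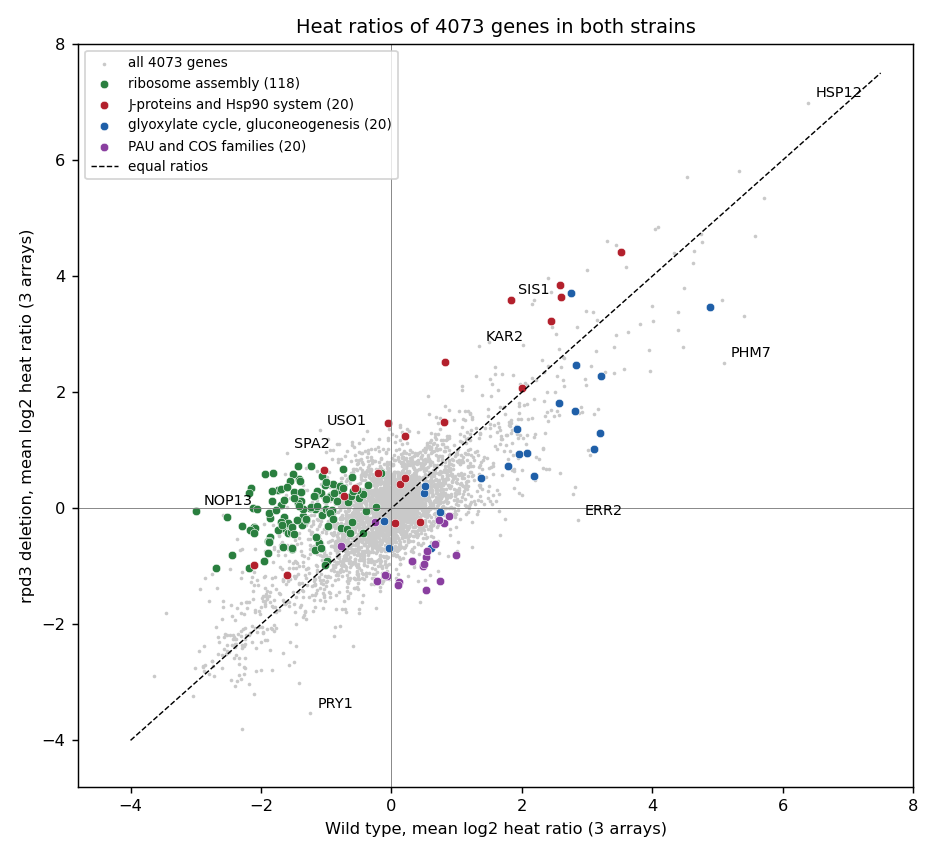
Mean log2 heat ratio of 3 wild-type arrays (x axis) against that of 3 rpd3 deletion arrays (y axis), 1 point per gene, with 4 groups in colour and the number of genes in brackets. The 118 ribosome assembly genes lie above the dashed line of equal ratios, while 18 of the 20 PAU and COS genes were called lower and lie below it.

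RPD3 gives only a weak check of the labels, because heated and control RNA of the mutant both lack its transcript. Its heat ratio was 0.19, 0.20 and 0.26 over the wild-type arrays, against -0.11, -0.03 and -0.08 over the mutant arrays. The mutant mean of -0.07 lay within the range of the 4 deleted genes there, from -0.06 for MET17 to -0.14 for HIS3. The strain difference of RPD3 was -0.29 ± 0.09 (adjusted p = 0.0378), and those of HIS3, LEU2, MET17 and URA3, which have no transcript or a cut transcript in both strains, ran from -0.29 to -0.18 with none called. With quantile normalization HIS3, LEU2 and URA3 were called lower too (-0.35, -0.35 and -0.29), as were HIS3 and LEU2 with arrays centred on their medians (both -0.34). RPD3 itself was called only with all arrays or without mutant array 2, and its adjusted p was 0.0836 to 0.154 when another array was left out. Of 14 Rpd3 complex genes, RPD3 included, 4 were higher (28.57%) and 2 lower (14.29%) in the mutant. Over all genes 24.8% were higher and 21.0% lower, so the list lay near the background. The lower genes include RPD3 itself. When any 1 array was left out, 3 or 4 genes of the list were higher and 0 or 1 lower. RCO1, a subunit of Rpd3S, was higher by 1.04 ± 0.14, and CTI6, a subunit of Rpd3L, by 0.66 ± 0.11. The scaffold gene SIN3 (0.21 ± 0.15, adjusted p = 0.287) and UME6 (0.04 ± 0.12, adjusted p = 0.792) did not pass the test.

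Ribosome assembly genes were higher in the mutant nearly throughout. Of 58 measured genes of small-subunit assembly, 55 were higher in the mutant and 0 lower, against 24.8% and 21.0% of all genes. Of 60 genes of large-subunit assembly, also 55 were higher and 0 lower. For the small subunit the list median of the heat ratio was -1.22, -1.27 and -1.22 over the wild-type arrays, against -0.02, -0.13 and 0.23 over the mutant arrays. For the large subunit it was -1.41, -1.62 and -1.28 in wild type, versus -0.17, -0.39 and 0.22 in the mutant. In wild type 57 of 58 and 60 of 60 of these genes fell on heating. In the mutant 14 of 58 and 20 of 60 fell, while 14 and 10 rose. The median strain difference was 1.23 and 1.33, beside 0.02 over all genes.

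NOP13, which encodes a nucleolar RNA-binding protein, had the highest strain difference of the 4073 genes. Its heat ratio was -2.93, -2.93 and -3.11 in wild type, against -0.07, -0.43 and 0.38 in the mutant. The strains did not overlap, and the mutant arrays lay around 0. The difference was 2.95 ± 0.20, or 7.72-fold (adjusted p = 0.000309). ECM16 encodes an RNA helicase of the small-subunit processome. Its ratios of -1.90, -2.13 and -1.79 in wild type stood against 0.66, 0.24 and 0.86 in the mutant, a difference of 2.52 ± 0.18 (adjusted p = 0.000309). ECM16 was thus negative on each wild-type array and positive on each mutant array.

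The same pattern held for RRP1, a processing factor of the large subunit, at -2.16 ± 0.12 (SD, n = 3) in wild type, versus 0.35 ± 0.30 in the mutant. SAS10, another processome component, was at -1.82 ± 0.27 and 0.60 ± 0.50. REA1, a giant ATPase that drives late steps of large-subunit maturation, was at -2.18 ± 0.41 and 0.26 ± 0.92, with the mutant arrays at 0.30, -0.68 and 1.16. KRI1 (2.15 ± 0.20), YTM1 (2.13 ± 0.15), DRS1 (2.12 ± 0.16) and RRP12 (2.37 ± 0.32) were also among the 14 highest strain differences. A few assembly genes stood apart from their lists. SDA1, which acts in large-subunit export, was at -0.43 ± 0.22 in wild type, against -0.42 ± 0.36 in the mutant, a difference of 0.01 ± 0.20 (adjusted p = 0.964). FAP7, which acts in the last cleavage of small-subunit RNA, differed by 0.08 ± 0.12 (adjusted p = 0.628).

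**Figure D2:**
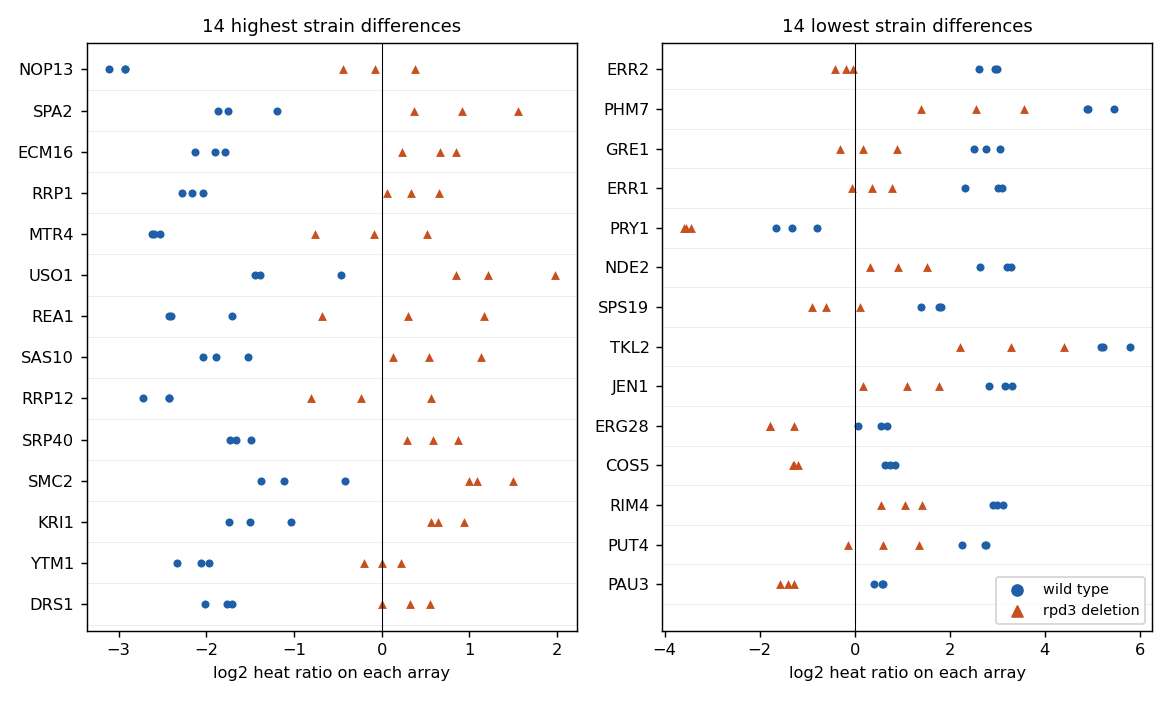
Log2 heat ratio (x axis) on each of the 3 wild-type arrays (circles) and 3 rpd3 deletion arrays (triangles) for the 14 genes with the highest (left) and the 14 with the lowest (right) strain difference among called genes without overlap. On the left, NOP13 lies at -3.11 to -2.93 in wild type and -0.43 to 0.38 in the mutant; on the right, ERR2 lies at 2.62 to 2.99 in wild type and -0.41 to -0.03 in the mutant.

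Genes for factors that process and modify stable RNA were also called higher in large part. Of 16 exosome genes, which encode the RNA-degrading exosome and its helpers, 10 were higher and 1 lower. The exosome's helicase gene MTR4 was at -2.62, -2.59 and -2.52 in wild type, versus -0.09, -0.76 and 0.51 in the mutant, and the strains did not overlap. Its strain difference was 2.47 ± 0.29 (adjusted p = 0.000982). TRF5 and AIR1, which encode 2 parts of the polyadenylating complex that works with Mtr4, changed sign: TRF5 was at -0.65 ± 0.10 in wild type, against 0.49 ± 0.09 in the mutant, and AIR1 at -0.70 ± 0.15 and 0.41 ± 0.07. The paralogue AIR2 was lower in the mutant by 0.39 on the log2 scale, from -0.04 to -0.43 (adjusted p = 0.0143). AIR2 missed the threshold when array 1 of wild type (adjusted p = 0.0544) or of the mutant (0.0634) was left out. Of 13 genes for the cores of small nucleolar ribonucleoproteins and nucleolar proteins, 8 were higher and 0 lower, among them SRP40 (2.21 ± 0.16), NOP56 (1.62 ± 0.21) and NOP58 (1.39 ± 0.16). SNU13 differed by -0.12 ± 0.21 (adjusted p = 0.665). Of 24 tRNA modification genes 18 were higher and 1 lower, with a median difference of 0.69. The methyltransferase gene TRM3 (1.62 ± 0.23) and the pseudouridine synthase gene PUS4 (1.46 ± 0.16) led this list. TAD2, an essential tRNA adenosine deaminase gene, was lower (-0.88 ± 0.13, adjusted p = 0.00261).

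Both polymerases that make stable RNA had members that differed. Of 15 genes of RNA polymerase I and its factors, 7 were higher and 0 lower, although the list medians of the strains were close, -0.37 in wild type, versus -0.39 in the mutant. RPA49, a subunit of the enzyme, was at -1.63, -1.57 and -1.66 in wild type, against 0.19, -0.08 and 0.55 in the mutant. Its difference was 1.84 ± 0.16 (adjusted p = 0.000629). The large subunit genes RPA135 (1.42 ± 0.18) and RPA190 (1.20 ± 0.22) were higher but remained below 0 in the mutant, at -1.05 ± 0.29 and -1.60 ± 0.38. Of 18 genes of RNA polymerase III and its factors, 10 were higher and 0 lower. BRF1, a subunit of its initiation factor TFIIIB, was at -0.81 ± 0.32 in wild type, versus 0.84 ± 0.31 in the mutant. RPC53 differed by 0.05 ± 0.11 (adjusted p = 0.724).

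Genes of translation were called higher in part, and few ribosomal protein genes were called. Of 17 aminoacyl-tRNA synthetase genes, 10 were higher and 0 lower, led by KRS1 (1.59 ± 0.21), THS1 (1.51 ± 0.32) and ILS1 (1.39 ± 0.24). Without wild-type array 1, wild-type array 2 or mutant array 1, 4, 6 and 4 synthetase genes were higher. Of 42 translation factor genes 18 were higher and 3 lower, with a median difference of 0.38, or 0.25 without mutant array 3. TIF3 (1.60 ± 0.26) and TIF35 (1.54 ± 0.17), both of translation initiation, led them. Of 137 cytosolic ribosomal protein genes, 134 fell on heating in wild type, as did 131 in the mutant. Their list median was -2.12, -1.86 and -2.44 over the wild-type arrays, against -2.13, -2.14 and -1.69 over the mutant arrays, so the strains overlapped. Of the 137, 18 were higher and 6 lower (13.1% and 4.4%), both below the shares over all genes. Leaving out wild-type array 1, wild-type array 3, mutant array 1 or mutant array 2 gave 6, 9, 10 and 30 higher genes with 1, 15, 1 and 8 lower, and leaving out wild-type array 2 gave 20 and 1. Quantile normalization gave 17 higher and 22 lower, and centring on the deleted genes 46 and 1, so no direction is given for this list. The median difference of 0.13 changed to -0.01, -0.04 and 0.25 when wild-type array 3, mutant array 3 or wild-type array 2 was left out. RPS17B (1.66 ± 0.31) and RPS26B (1.66 ± 0.35) were higher, and RPL18B was lower (-1.14 ± 0.23). Most ribosomal proteins have 2 nearly identical genes whose probes may share signal, so values of single copies are uncertain.

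**Figure D3:**
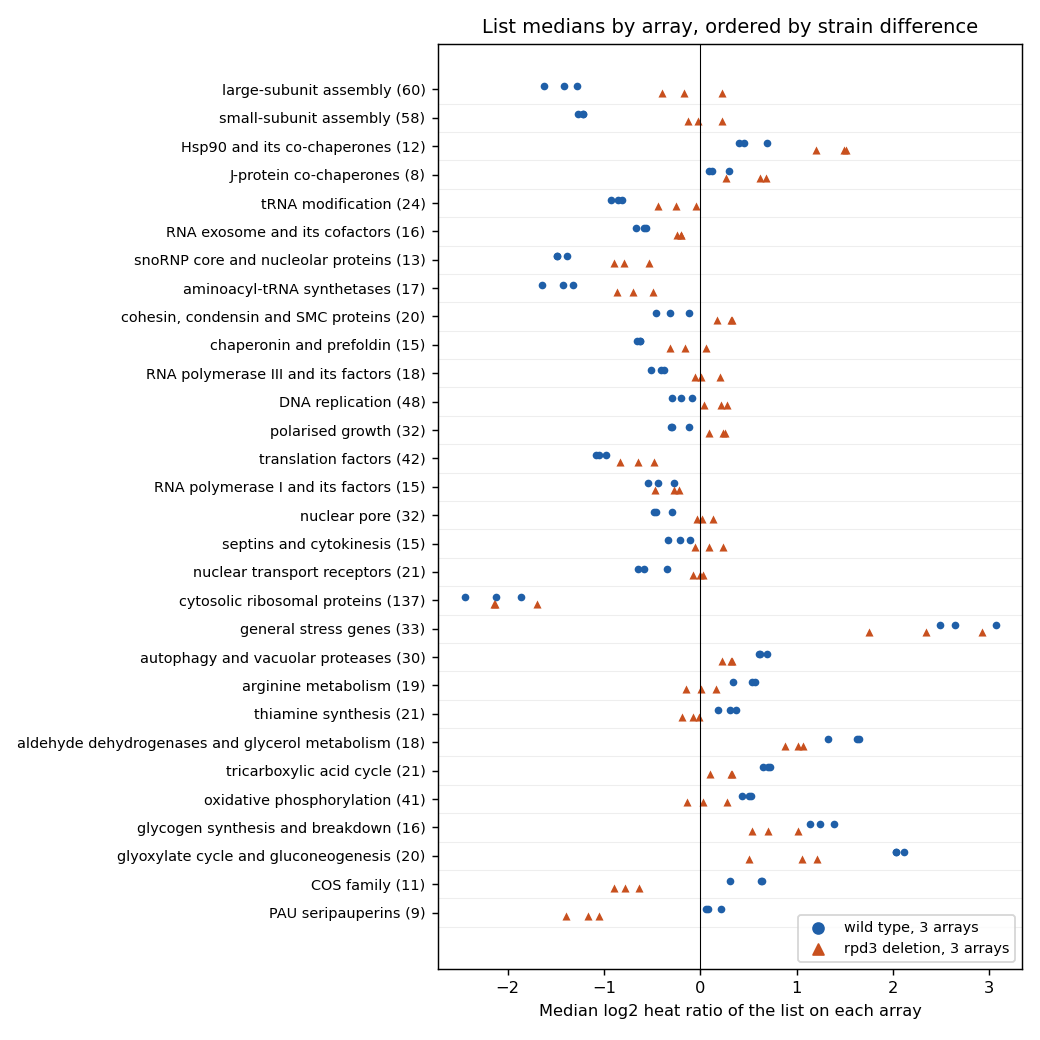
Median log2 heat ratio (x axis) of each gene list on each wild-type (circles) and rpd3 deletion array (triangles), for described lists with a median strain difference of at least 0.3 in either direction and for cytosolic ribosomal proteins, with the number of measured genes in brackets. On wild-type arrays the large-subunit list lies at -1.62 to -1.28 and the small-subunit list at -1.27 to -1.22, both lie at -0.39 to 0.23 in the mutant, and cytosolic ribosomal proteins overlap between strains.

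Some nuclear transport and nuclear pore genes were called higher, and few were called lower. Of 32 nuclear pore genes 14 were higher and 0 lower, among them MLP1, which encodes a filament of the nuclear basket (1.62 ± 0.27), NUP53 (1.42 ± 0.15) and NUP145 (1.38 ± 0.19). Without wild-type array 2 or mutant array 1 the pore count was 9. Of 21 transport genes 10 were higher and 1 lower, and this fell to 4, 5, 4 and 6 higher without wild-type array 1, wild-type array 2, mutant array 1 and mutant array 3. In the first 3 of these settings 17.1%, 17.1% and 15.8% of all genes were higher, so the transport count then lay near the background. YRB1 (1.27 ± 0.23), YRB2 (1.25 ± 0.17) and the Ran exchange factor gene SRM1 (1.21 ± 0.10) led the higher genes. The lower gene was GSP2, one copy of the Ran GTPase that powers this transport. GSP2 was at 1.49, 1.63 and 1.81 in wild type, against -0.07, 0.02 and -0.08 in the mutant. It rose in wild type and lay near 0 in the mutant, with a difference of -1.69 ± 0.12 (adjusted p = 0.000309). The main Ran gene GSP1, picked for comparison after its values were seen, was at -0.69 in wild type, versus -0.63 in the mutant (0.05 ± 0.11, adjusted p = 0.731).

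Genes of cell polarity, chromosome structure and DNA replication were called higher in part. SPA2, a scaffold at sites of polarised growth, was at -1.75, -1.87 and -1.19 in wild type, against 0.92, 0.37 and 1.56 in the mutant. All wild-type arrays were below 0 and all mutant arrays above it, and the difference was 2.55 ± 0.31 (adjusted p = 0.00115). Of 32 genes of polarised growth, 17 were higher and 2 lower, with BUD4, a bud-site landmark, at 1.22 ± 0.21. Without wild-type array 1, wild-type array 2 or mutant array 1 the count was 8, 10 and 8. Of 20 cohesin, condensin and SMC genes, whose products hold and fold chromosomes, 11 were higher and 0 lower. The condensin gene SMC2 went from -0.97 ± 0.50 to 1.20 ± 0.26, a difference of 2.17 ± 0.26 (adjusted p = 0.00106). The cohesin gene SMC1 was at -0.61, -0.78 and -0.09 in wild type, versus 1.07, 0.92 and 1.40 in the mutant (1.63 ± 0.21, adjusted p = 0.0014). It was negative on all wild-type and positive on all mutant arrays, and SMC3 (1.58 ± 0.25) changed sign in the same way.

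Of 48 DNA replication genes 26 were higher and 3 lower, and without mutant array 1 the higher count was 16. The topoisomerase gene TOP1 (1.47 ± 0.21) and the primase gene PRI2 (1.26 ± 0.10) were higher, while ORC5, of the origin recognition complex, was lower (-0.75 ± 0.13). Of 47 DNA repair and checkpoint genes 19 were higher and 5 lower, or 3 lower without wild-type array 1, wild-type array 2, mutant array 1 or mutant array 3. The mismatch repair gene MSH6 was at -1.31 ± 0.22 in wild type, against 0.70 ± 0.40 in the mutant, a difference of 2.01 ± 0.21 (adjusted p = 0.000804), and RAD9, a checkpoint adaptor, differed by 1.32 ± 0.14. HUG1, a gene known for its induction by DNA damage, was lower (-1.12 ± 0.20). Of 32 tethers of the Golgi and plasma membrane 14 were higher and 1 lower. USO1, a long vesicle tether, was at -1.38, -1.44 and -0.46 in wild type, versus 0.85, 1.21 and 1.97 in the mutant, a difference of 2.44 ± 0.35 (adjusted p = 0.00203). The tether count was 8 without wild-type array 1, wild-type array 2 or mutant array 1. In these settings 17.1%, 17.1% and 15.8% of all genes were higher.

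Gene length moved with the strain difference, and its part in these results was not tested. Over 5 bins of 4065 genes ordered by length, the median difference was -0.14 in the shortest bin and 0.17 in the longest, with 15.2% and 31.2% of genes called higher and 26.4% and 16.4% called lower. Median gene lengths were 3195 bases for the cohesin and condensin list, 2784 for polarised growth, 2883 for nuclear transport and 2378 for the nuclear pore. With a trend on length removed, SPA2 differed by 2.34, USO1 by 2.20 and SMC2 by 2.00, all still called.

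Several genes for proteins that work with Hsp70 and Hsp90 were higher in the mutant. Of 8 J-protein genes, whose products activate Hsp70, 6 were higher and 1 lower. SIS1 was at 1.94, 1.34 and 2.22 in wild type, against 3.65, 3.93 and 3.19 in the mutant. It was high in both strains, without overlap, and differed by 1.76 ± 0.26, or 3.38-fold (adjusted p = 0.00245). YDJ1 was at 0.74, 0.49 and 1.23 in wild type, versus 2.58, 2.44 and 2.52 in the mutant, a difference of 1.70 ± 0.19 (adjusted p = 0.000881). HLJ1, whose product sits in the endoplasmic reticulum membrane, was also higher (1.03 ± 0.14), and XDJ1 was lower (-0.68 ± 0.11).

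Of 12 genes for Hsp90 and its co-chaperones, 8 were higher and 0 lower, or 5 higher without wild-type array 1, wild-type array 2 or mutant array 1. CNS1, an essential co-chaperone, was at -1.03 ± 0.14 in wild type, against 0.65 ± 0.09 in the mutant, a difference of 1.68 ± 0.11 (adjusted p = 0.000309). CPR6 went from 2.59 ± 0.50 to 3.84 ± 0.39 (1.26 ± 0.28). SBA1 went from -0.05 ± 0.56 to 1.47 ± 0.67, and was not called when wild-type array 1 (adjusted p = 0.0641), wild-type array 2 (0.0635) or mutant array 1 (0.0522) was left out. Of 15 genes of the chaperonin and prefoldin, which fold actin and tubulin, 8 were higher and 0 lower, with PAC10 at 0.78 ± 0.10. This count was 4, 3, 2 and 4 without wild-type array 1, wild-type array 2, mutant array 1 and mutant array 3, and 5 with arrays centred on their medians. Over all genes 17.1%, 17.1% and 15.8% were higher in the first 3 of these settings. The counts of 3 and 2 out of 15 thus lay near or below the background.

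Among strongly induced heat shock genes, HSP104, HSP12, SSA4 and HSP26 did not pass the test for a difference, while HSP78 did. HSP104, the disaggregase gene, was at 4.20, 3.65 and 4.26 in wild type, versus 4.83, 5.64 and 3.94 in the mutant, so the strains overlapped (0.77 ± 0.40, adjusted p = 0.147). HSP12 was at 6.66, 6.08 and 6.43 in wild type, against 7.15, 8.75 and 5.06 in the mutant (0.60 ± 0.80, adjusted p = 0.561). The Hsp70 gene SSA4 differed by 0.49 ± 0.60 (adjusted p = 0.525) and the small heat shock protein gene HSP26 by -0.17 ± 0.44 (adjusted p = 0.768). For all 4, mutant array 2 was the highest of the mutant arrays and mutant array 3 the lowest. HSP78, the disaggregase gene of mitochondria, was at 3.37, 2.91 and 3.62 in wild type, against 4.64, 5.28 and 3.87 in the mutant, without overlap (1.30 ± 0.35, adjusted p = 0.0204). It was not called when wild-type array 1 (adjusted p = 0.0675), wild-type array 2 (0.0817) or mutant array 1 (0.0648) was left out. Among the sorting and aggregation factors, BTN2 was higher (1.57 ± 0.30, adjusted p = 0.00604). The cytosolic Hsp110 gene SSE1 was at 1.08 ± 0.30 in wild type, versus 2.11 ± 0.04 in the mutant (1.03 ± 0.16, adjusted p = 0.00261). Of 10 Hsp70 and Hsp110 genes 3 were higher (30.0%) and 0 lower, beside 24.8% of all genes higher. SSA1 of that list differed by -0.48 ± 0.23 (adjusted p = 0.124). Of 6 genes of small heat shock proteins and the disaggregase, BTN2 included, 2 were higher and 0 lower.

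Genes of protein folding in the endoplasmic reticulum went in both directions. Of 19, 4 were higher and 8 lower, or 5 lower without wild-type array 1, wild-type array 2 or mutant array 1. The median difference was -0.30, and -0.07 with the length trend removed. KAR2, the Hsp70 of this compartment, was at 1.42, 1.06 and 1.53 in wild type, against 2.78, 3.16 and 2.45 in the mutant. All mutant arrays were above all wild-type arrays, by 1.46 ± 0.20 (adjusted p = 0.00191). The disulfide isomerase relatives MPD1 (-0.89 ± 0.18) and MPD2 (-0.60 ± 0.12) and the ubiquitin-conjugating enzyme gene UBC7 (-0.91 ± 0.20) were lower.

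**Figure D4:**
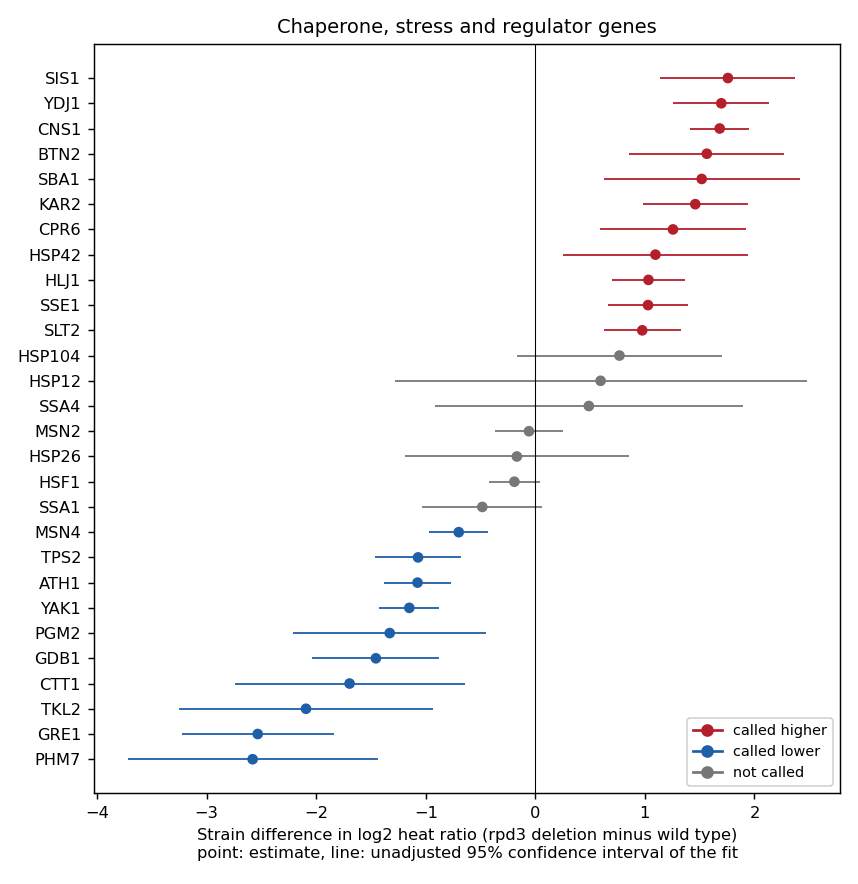
Strain difference in log2 heat ratio (x axis; rpd3 deletion minus wild type) for 28 chaperone, stress and regulator genes, with lines for the unadjusted 95% confidence interval of the fit over 3 arrays per strain. SIS1 at 1.76 has the highest and PHM7 at -2.58 the lowest difference among them, and the intervals of HSP104, HSP12, SSA4 and HSP26 include 0.

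The general stress genes, which respond to Msn2 and Msn4 in many stresses, were lower in part. All 33 rose in wild type, as did 28 in the mutant, while 12 had a lower and 2 a higher ratio in the mutant. Their list median was 3.07, 2.49 and 2.64 over the wild-type arrays, against 2.35, 2.93 and 1.75 over the mutant arrays, which overlap. The median difference was -0.31, but -0.60 without mutant array 2 and -0.04 without mutant array 3, and -0.16 with the length trend removed. Leaving out wild-type array 1, mutant array 1 or mutant array 2 gave 5, 6 and 18 lower genes. PHM7, a membrane protein gene of unsettled role, was at 5.46, 4.92 and 4.90 in wild type, versus 2.56, 3.56 and 1.40 in the mutant. It rose in both strains without overlap, and its difference was -2.58 ± 0.49 (adjusted p = 0.00553). GRE1, a hydrophilin gene induced by osmotic stress, was at 3.07, 2.77 and 2.51 in wild type, against 0.18, 0.88 and -0.32 in the mutant (-2.53 ± 0.30, adjusted p = 0.00101).

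CTT1, the cytosolic catalase gene, differed by -1.70 ± 0.45 (adjusted p = 0.0194), and TKL2, a transketolase gene, by -2.09 ± 0.50 (adjusted p = 0.013). CTT1 was not called when wild-type array 1 (adjusted p = 0.0805), wild-type array 2 (0.0589) or mutant array 1 (0.0574) was left out, nor TKL2 when wild-type array 1 was (0.0615). HSP42 went the other way (1.10 ± 0.36, adjusted p = 0.0413), and its call was lost without any array other than mutant array 3, with adjusted p from 0.0536 to 0.143. Among the regulators themselves, MSN4 was at 0.73, 0.98 and 0.98 in wild type, versus 0.22, 0.28 and 0.10 in the mutant. These arrays did not overlap, and the difference was -0.70 ± 0.12 (adjusted p = 0.0034). Its partner MSN2 was at 0.67 ± 0.15 and 0.61 ± 0.18 (-0.06 ± 0.13, adjusted p = 0.74), and HSF1 at 0.55 ± 0.07 and 0.36 ± 0.08 (-0.19 ± 0.10, adjusted p = 0.151). YAK1, a kinase that restrains growth, was at 1.36 ± 0.11 in wild type, against 0.21 ± 0.13 in the mutant (-1.15 ± 0.12, adjusted p = 0.000766). SIP2, a subunit of the Snf1 kinase, was also lower (-0.95 ± 0.19). SLT2, the kinase of the cell wall integrity pathway, was higher (0.98 ± 0.15, adjusted p = 0.00264).

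Most reserve carbohydrate genes rose on heating in both strains, and several had a lower ratio in the mutant. Of 10 trehalose genes, 4 were lower and 0 higher, and of 16 glycogen genes 7 were lower and 0 higher. TPS2, trehalose-phosphate phosphatase, was at 2.36 ± 0.15 in wild type, versus 1.29 ± 0.30 in the mutant (-1.07 ± 0.17, adjusted p = 0.00287). The acid trehalase gene ATH1 went from 1.94 ± 0.22 to 0.86 ± 0.05 (-1.08 ± 0.13). GDB1, the glycogen debranching enzyme gene, went from 3.16 ± 0.11 to 1.70 ± 0.53 (-1.46 ± 0.25, adjusted p = 0.00378), and PCL8, a cyclin of the kinase that acts on glycogen synthase, from 0.71 ± 0.02 to -0.10 ± 0.17 (-0.82 ± 0.12). UGP1, which makes the shared precursor UDP-glucose, differed by 0.14 ± 0.20 (adjusted p = 0.582). Leaving out mutant array 3 changed the median differences from -0.66 to -0.38 for trehalose and from -0.57 to -0.37 for glycogen.

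Genes of the glyoxylate cycle and gluconeogenesis, which serve growth on non-fermentable carbon, were lower in large part. Of 20 genes of the glyoxylate cycle and gluconeogenesis, 14 were lower and 0 higher, and the list median was 2.11, 2.03 and 2.03 in wild type, against 1.05, 1.21 and 0.51 in the mutant. JEN1, the lactate and pyruvate permease gene, was at 3.32, 3.17 and 2.83 in wild type, versus 1.10, 1.77 and 0.17 in the mutant. The strains did not overlap, and the difference was -2.09 ± 0.37 (adjusted p = 0.00424). ACS1, acetyl-CoA synthetase, differed by -1.90 ± 0.41 and YAT1, a carnitine acetyltransferase, by -1.63 ± 0.35. ADH2, the alcohol dehydrogenase that consumes ethanol, was at 2.76 ± 0.30 in wild type, against 3.71 ± 1.29 in the mutant, without passing the test (adjusted p = 0.202). Of 22 genes of peroxisomal fatty acid oxidation 4 were lower and 1 higher, so 18.2% were lower, beside 21.0% of all genes.

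Of 21 genes of the tricarboxylic acid cycle 10 were lower and 1 higher, and of 41 genes of oxidative phosphorylation 24 were lower and 2 higher. Both lists hold SDH4, and some other lists share genes too, so counts of such lists are not independent. NDE2, an external NADH dehydrogenase of mitochondria, was at 3.22, 3.29 and 2.64 in wild type, versus 0.91, 1.52 and 0.32 in the mutant. The difference of -2.13 ± 0.31 (adjusted p = 0.00216) was among the 14 lowest of all genes. The succinate dehydrogenase genes SDH1 (-1.40 ± 0.15) and SDH4 (-1.47 ± 0.28), the oxoglutarate dehydrogenase gene KGD1 (-1.26 ± 0.15) and INH1, the inhibitor of the mitochondrial ATP synthase (-1.42 ± 0.17), were lower. QCR6, a subunit of the cytochrome bc1 complex, was higher (1.07 ± 0.16). The oxidative phosphorylation genes are short, with a median of 462 bases. With the length trend removed 16 were lower with a median of -0.31 in place of -0.52, and without wild-type array 2 or mutant array 1 the lower count was 14 and 13.

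Genes of autophagy and of arginine and proline metabolism were called lower in part. Of 30 genes of autophagy and vacuolar proteases 14 were lower and 1 higher. The vacuolar protease gene PRB1 was at 2.33 ± 0.14 in wild type, against 0.70 ± 0.60 in the mutant (-1.63 ± 0.28), and ATG1, the kinase that starts autophagy, at 0.92 ± 0.13 and 0.00 ± 0.19 (-0.92 ± 0.13, adjusted p = 0.00214). ATG17, a scaffold that acts with Atg1, was higher (0.60 ± 0.15). Of 19 genes of arginine and proline metabolism 8 were lower and 0 higher, or 5 lower without wild-type array 1. The proline permease gene PUT4 was at 2.75, 2.76 and 2.26 in wild type, versus 0.60, 1.36 and -0.14 in the mutant, a difference of -1.99 ± 0.35 (adjusted p = 0.00441). ARG3, an enzyme of arginine synthesis, changed sign, from 0.99 ± 0.13 to -0.32 ± 0.07.

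Rpd3L represses meiotic and metabolic genes through Ume6, so these genes bear on the background of the deletion. Of 34 meiosis genes repressed through Ume6, 8 were lower (23.53%) and 6 higher (17.65%), beside 21.0% and 24.8% of all genes. These counts thus lay near or below the background. The median difference was -0.09. The median was above 0, at 0.15, with arrays centred on the deleted genes. Leaving out wild-type array 1 gave 4 lower and 3 higher genes, leaving out mutant array 1 gave 5 and 3, and leaving out wild-type array 2 gave 7 and 3. Of 11 metabolic genes repressed through Ume6, 5 were lower and 2 higher, or 3 lower without wild-type array 1, wild-type array 2 or mutant array 1. Their median difference was -0.22, but 0.03 with arrays centred on the deleted genes, so no direction is given for this list. CAR1, the arginase gene, was at 2.05 ± 0.22 in wild type, against 2.17 ± 0.47 in the mutant (adjusted p = 0.714), and INO1 at 1.38 ± 0.30 and 1.95 ± 0.52 (adjusted p = 0.122). RIM4, an RNA-binding regulator of meiosis, was at 3.00, 3.12 and 2.91 in wild type, versus 1.06, 1.42 and 0.55 in the mutant (-2.00 ± 0.21, adjusted p = 0.000807). SPS19, a peroxisomal reductase gene induced in sporulation, was at 1.66 ± 0.23 and -0.46 ± 0.51 (-2.12 ± 0.26). ZIP1, a protein of meiotic chromosome pairing, was near 0 in wild type (0.02 ± 0.23) and rose to 1.28 ± 0.17 in the mutant.

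PAU and COS genes, families found mostly near chromosome ends, were nearly all lower in the mutant. All 9 measured PAU genes, which encode small mannoproteins induced without oxygen, were lower, as were 9 of 11 COS genes, which encode membrane proteins of sorting to the vacuole. COS5 was at 0.75, 0.64 and 0.86 in wild type, against -1.31, -1.18 and -1.27 in the mutant, a difference of -2.00 ± 0.10 (adjusted p = 0.000306). PAU3 was at 0.58, 0.60 and 0.41 in wild type, versus -1.39, -1.28 and -1.58 in the mutant (-1.95 ± 0.12, adjusted p = 0.000309). Every wild-type array was above 0 and every mutant array below it for both. Members of each family resemble each other in sequence, and some are nearly identical. Their probes may therefore share signal, and the counts are not over independent genes. The COS genes not called were COS10 (0.01 ± 0.12) and COS12 (0.12 ± 0.13). PAU genes are short (median 363 bases), and with the length trend removed their median difference was -0.84 in place of -1.28, with all 9 still lower.

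Other genes near chromosome ends were lower in part. Of the 64 measured genes among the first 5 from a chromosome end in RefSeq's gene order, 57.8% were lower and 12.5% higher, with a median difference of -0.64. The share lower was 33.7% of 89 genes at places 6 to 10, with a median of -0.20, and 20.3% of 3226 genes at place 41 or beyond. Without PAU and COS genes, 49.0% of the 49 left among the first 5 were lower, with a median of -0.36. This value and the -0.20 at places 6 to 10 lie near -0.26, the median difference of the 4 genes deleted in BY4741. Whether these shares hold after centring on those 4 genes was not tested. The lower genes left still include members of other families, such as ERR1 and ERR2, MAL12 and MAL32, and THI11 and THI13. Probes of such copies may share signal, so the share is not one over independent genes. The lowest strain difference of all genes was that of ERR2, an enolase-related gene at such a place. It was at 2.96, 2.99 and 2.62 in wild type, against -0.17, -0.03 and -0.41 in the mutant, so a strong ratio in wild type stood against values just below 0. The difference was -3.06 ± 0.15, or 8.35-fold (adjusted p = 0.000306), and ERR1, a near-identical copy, differed by -2.45 ± 0.27. FRE2, a ferric reductase gene, was also lower there (-1.66 ± 0.11). Of the 8 genes called higher at the first 5 places, 7 were copies of YRF1, the helicase gene of the telomeric Y' element, at 0.62 to 0.80, whose near-identical probes cannot tell them apart. Of these copies, 3 missed the threshold when wild-type array 1 or mutant array 1 was left out (adjusted p = 0.0521 to 0.058). The remaining gene was ERO1, the oxidase of disulfide formation in the endoplasmic reticulum (1.38). YRF1 and ERO1 were singled out after their values were seen.

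**Figure D5:**
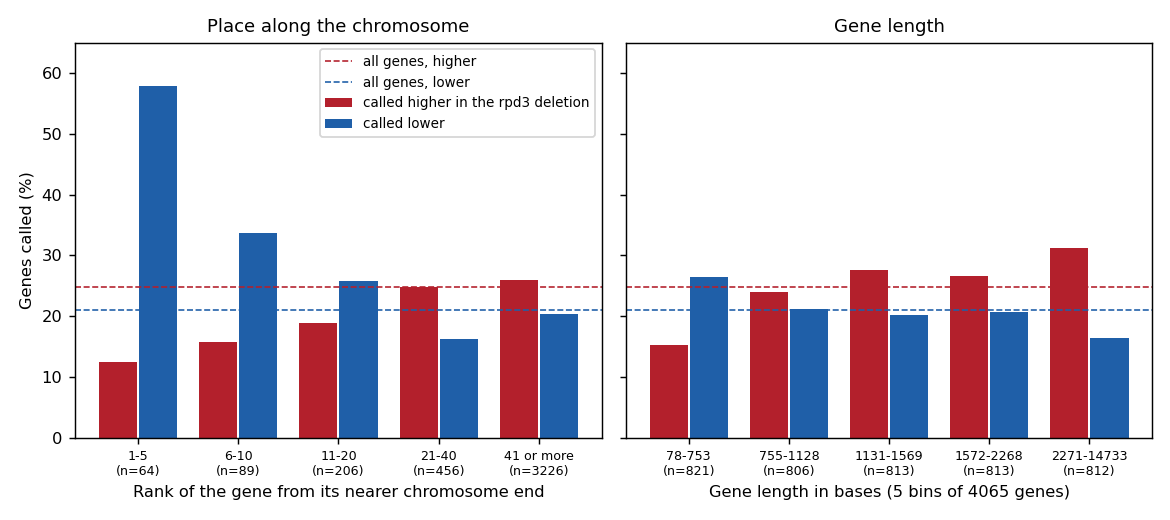
Percent of genes called higher (red) or lower (blue) in the rpd3 deletion by rank from the nearer chromosome end (left) and by 5 bins of gene length (right), with the number of genes in brackets and dashed lines at the shares over all genes. At the first 5 places 57.8% of genes were lower, and from the shortest to the longest bin the share called higher went from 15.2% to 31.2%.

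Uptake and vitamin genes were lower in part. Of 29 iron uptake genes 12 were lower and 3 higher, or 5 lower without wild-type array 1, wild-type array 2 or mutant array 1. The cell wall mannoprotein gene FIT2 (-1.26 ± 0.25) and the siderophore transporter gene ARN2 (-1.15 ± 0.23) were lower, while the reductase gene FRE1 was higher (1.11 ± 0.24). Of 21 thiamine genes 12 were lower and 4 higher. The near-identical genes THI5 (-1.25 ± 0.23) and THI12 (-1.36 ± 0.23) were lower, as were THI11 (-0.88) and THI13 (-0.36). Probes of such copies may share signal, so the lower thiamine genes are not independent. PHO3, a phosphatase that releases thiamine, was higher (1.13 ± 0.15). The count of lower thiamine genes was 5, 6, 5 and 6 without wild-type array 1, wild-type array 2, mutant array 1 and mutant array 3, and that of higher genes was 2 without wild-type array 2 or mutant array 1.

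In 53 genes called higher and 23 called lower, the strain means lay on opposite sides of 0, each at least 0.5 away. FUN30, a chromatin remodeller gene, was at -0.96, -1.33 and -0.70 in wild type, versus 0.88, 1.04 and 1.00 in the mutant (1.97 ± 0.17, adjusted p = 0.000557). SDP1, a phosphatase that acts on the kinase Slt2, was at 1.49, 1.31 and 0.90 in wild type, against -0.66, -0.32 and -1.05 in the mutant (-1.91 ± 0.22, adjusted p = 0.000982). For both genes the sign was the same on the 3 arrays of a strain and opposite between strains. GDH3, a glutamate dehydrogenase gene (-1.79 ± 0.27), MET13, of methionine synthesis (-1.74 ± 0.26), and OYE3, an NADPH oxidoreductase gene (-1.68 ± 0.30), showed the same pattern as SDP1. UBP1, a ubiquitin protease gene (1.90 ± 0.23), and SLK19, of the mitotic spindle (1.95 ± 0.27), showed that of FUN30.

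Other genes differed although wild type stayed near 0. Among called genes with a wild-type mean within 0.25 of 0, 277 were higher and 247 lower in the mutant. Uncalled genes in that range were not counted, so no share can be set beside these counts. SIC1, the inhibitor of the cyclin-dependent kinase that holds cells before DNA replication, was at 0.12, -0.33 and 0.12 in wild type, versus 1.41, 1.38 and 1.30 in the mutant (1.40 ± 0.14, adjusted p = 0.000781). The metallothionein genes CUP1-1 and CUP1-2, identical copies that count as 1 measurement, were at 0.13 in wild type and at 1.41 and 1.43 in the mutant. PSO2, a nuclease of crosslink repair, differed by 1.27 ± 0.13. In the other direction YOX1, a repressor of cell cycle genes, was at -0.24 ± 0.38 in wild type, against -1.72 ± 0.21 in the mutant (-1.48 ± 0.21, adjusted p = 0.00188). HMO1, which encodes a high mobility group protein of ribosomal DNA and ribosomal protein promoters, was at -0.04, -0.03 and -0.45 in wild type, versus -1.43, -1.24 and -1.42 in the mutant (-1.19 ± 0.14, adjusted p = 0.00112). Further single lower genes included PRY1, a secreted sterol-binding protein gene (-2.28 ± 0.21), and ERG28, a scaffold of ergosterol synthesis (-2.05 ± 0.21), while the 28 ergosterol genes were split, 7 higher and 7 lower.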

How the data were processed

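RNA of 2 strains was measured on 6 two-colour arrays, with 200 ml cultures and 500 ng of RNA per labelling, per the labels' protocols. The labels put control RNA in Cy5 and heated RNA in Cy3 on every array, without a dye swap, so a shared dye effect drops out of the strain difference but not out of a single strain's ratios. The authors deposited 1 ratio per spot, read here as log2, but the sources used here state neither its base nor its background correction and normalization. The submitters' processing notes name limma and no version of it. Scanner intensities were not used here, so no filter on dim spots was set, and the number of arrays limits the precision.

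Of 45220 spots, 28532 had a gene symbol, covering 4073 genes, of which 4070 had 7 spots and 3 had 14. Spots of a gene were averaged per array, and 125 old symbols were updated through RefSeq's R64 table, which held 4065 of the genes and gave lengths and gene order. One limma 3.58.1 fit (R 4.3.3) held all 6 arrays, with 1 mean for each strain and no further term. The labels call the arrays of a strain biological replicates. The fit was also run on simulated ratios with independent noise and no array-wide shifts. That run therefore does not bear on differences between whole arrays.

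The comparison and the 79 gene lists were chosen with earlier results of these data known. Lists count as described where a direction held over 1.5 times its share among all genes with at least 5 genes called, or where a comparison needs them. They are given by counts and medians only, without a list test. The text prints part of the 40 lists over this limit. Left out, for example, are aldehyde dehydrogenases and glycerol metabolism (8 of 18 lower, 3 higher) and septins and cytokinesis (6 of 15 higher, 1 lower). Named genes were the 14 highest and 14 lowest called genes without overlap, the 3 most changed and the most opposite member of each list, 13 chosen genes, and the 8 most distant genes in each direction of opposite sign or with wild type near 0 (the text prints part of these). Alternatives were other centrings, scalings and spot summaries, a filter on spot spread, a removed length trend, robust and weighted fits, the replicate number as a block, and each array left out. Promoter sequences were not used here, so the planned motif search was not run.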

Additional observations from a re-analysis of the deposited data

Results flagged for a closer look

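The strain difference itself was tested for every gene, and 1012 genes were higher and 854 lower in the rpd3 deletion. Genes that moved one way on every wild-type array and the other way on every mutant array numbered 330 from negative to positive, 313 of them called, and 247 from positive to negative, 190 of them called.

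Among those named here, the difference from negative to positive was 2.44 for USO1, 1.97 for FUN30, 2.17 for SMC2, 2.55 for SPA2, 1.95 for CRP1, which encodes a protein that binds cruciform DNA, 1.90 for UBP1, 1.77 for SAP185, which encodes a partner of the phosphatase Sit4, and 1.95 for SLK19. From positive to negative it was -1.68 for OYE3, -1.80 for COS8, -2.00 for COS5, -1.74 for MET13, -1.50 for UBC5, a ubiquitin-conjugating enzyme gene, -1.79 for GDH3, -1.91 for SDP1 and -1.28 for PAU7.

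Spots without a gene name entered no comparison, and they too held strain differences. Of 16678 such spots, 8.38% were lower in the mutant by at least 2-fold without overlap of the arrays and 3.39% were higher. Of the 28532 named spots, 4.41% were lower and 7.53% were higher by the same rule.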

How the results depend on the processing

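The 4 counts of called genes (higher, lower, and each by at least 2-fold) were 1012, 854, 296 and 177. Centring on the deleted genes gave 1596, 391, 503 and 85, and array weights, whose fit did not converge and put nearly all weight on mutant array 1, gave 1616 higher and 1531 lower. Leaving out each array in turn gave 643 to 1202 higher, 450 to 1016 lower, 254 to 366 higher by 2-fold and 123 to 264 lower by 2-fold. With the replicate number as a block 1131 genes were higher and 962 lower, with 296 and 177 by 2-fold. Deviations of same-numbered arrays from their strain means correlated at -0.22, 0.21 and 0.42, and 3 of 6 arrays matched their own number best. With 3 arrays per strain these values cannot tell whether same-numbered arrays pair. Other settings kept each count within 1.5 times its value. Of 235 named genes, 206 of which the filter on spot spread held, none reversed a call under the alternatives run on them; 165 of the 203 called genes stayed called without any 1 array. List medians under 0.25 from 0 changed sign in 17 combinations of list and setting: with arrays centred on the deleted genes, mitochondrial ribosomal proteins (-0.15 to 0.10), actin (-0.17 to 0.07), cell wall proteins (-0.14 to 0.10) and stress regulators (-0.19 to 0.05) moved above 0, so no direction is given for them.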

Other observations

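Some lists did not reach the threshold for description, and their counts stand beside 24.8% of all genes called higher and 21.0% called lower. Of 60 genes of chromatin remodellers and acetyltransferases 21 were higher and 3 lower in the mutant (35.0% and 5.0%), and of 54 genes of general transcription factors and Mediator 18 were higher and 4 lower (33.3% and 7.4%). Of 33 genes of oxidative stress defence 10 were lower and 2 higher (30.3% and 6.1%). Glycolysis was called in few genes, 1 higher and 3 lower of 25, with a median strain difference of -0.06. The proteasome was split evenly, with 7 of 36 genes (19.4%) in each direction.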
